A study of Mus musculus with 2 samples.

Results

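The interferon response and MHC class I module described here is a set of 33 genes, taken by symbol from the 32285 mouse genes counted in hippocampal nuclei. Each of the 33 symbols matched 1 gene in the files. Of these members, 22 belong to the interferon response: 7 sensors, signalling and control genes, 12 interferon-induced effectors and 3 guanylate-binding proteins. The other 11 belong to MHC class I antigen presentation: 5 chains of MHC class I molecules and 6 genes that supply their peptides. The nuclei came from C57BL/6J mice that were injected at postnatal day 0, in both lateral ventricles, with an adeno-associated virus (AAV) carrying human MAPT, the gene of the microtubule protein tau. AAV-STOP mice, the controls, received a transcript with an early stop codon that prevents tau protein, and AAV-TAU mice received full-length wild-type human tau in its 2N4R isoform. All mice were 6 weeks old at collection, and both groups thus carried a virus and a human transcript. For each group the hippocampi of 3 mice went into 1 pooled single-nucleus library, so that nothing below has a spread between mice, a test or a p-value, and a difference between the libraries cannot be told apart from one between these pools. The labels were not checked through the human transgene, which was not analysed here.

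Type I interferons are secreted when a cell senses viral or misplaced nucleic acid, and bind a receptor shared by nearly all cells. The receptor's kinases activate STAT proteins, which join IRF9 and bind interferon-stimulated response elements in front of many target genes, among them the IFIT and OAS-like antiviral proteins, ISG15 and the guanylate-binding proteins. MHC class I molecules, also raised by interferons, carry peptides cut by the proteasome to the cell surface for inspection by CD8+ T cells. In the brain, microglia, border macrophages and endothelium are the best known sources of these transcripts, and neurons are known for low MHC class I.

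The response element has the core GAAANNGAAA, where N is any base, and 15 of the 29 members with a promoter in the RefSeq set (GRCm38.p6, from 250 bases before to 50 after the gene start) held it on either strand. This is 51.7% of those members, beside 3.99% of 27025 genes with a promoter. The stretches of 4 members on which results below turn, or which show the densest matches, run 5′ to 3′ on the gene's strand, with the matches in capitals (TTTCNNTTTC is the same core on the other strand).
Isg15, chr4:156200835-156200936, minus strand: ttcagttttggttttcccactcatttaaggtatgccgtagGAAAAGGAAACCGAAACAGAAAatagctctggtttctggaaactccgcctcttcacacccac
Ifit1, chr19:34640745-34640853, plus strand: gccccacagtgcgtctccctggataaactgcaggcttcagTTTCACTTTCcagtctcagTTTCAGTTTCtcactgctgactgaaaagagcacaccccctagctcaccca
Gbp7, chr3:142530243-142530332, plus strand: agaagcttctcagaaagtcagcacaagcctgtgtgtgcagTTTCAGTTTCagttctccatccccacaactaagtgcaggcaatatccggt
B2m, chr2:122147508-122147597, plus strand: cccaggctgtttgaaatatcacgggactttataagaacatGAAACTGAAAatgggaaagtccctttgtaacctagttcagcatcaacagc
Isg15, a ubiquitin-like protein, held 3 overlapping matches from position -78 before its start, and Ifit1, which binds foreign RNA ends, held 2 from position -104. Gbp7, a guanylate-binding protein, held 1 match at position -53, and B2m, the light chain of every MHC class I molecule, held 1 at position -139. The windows of H2-K1 and H2-D1, the classical heavy chains, held none. A second core, TTCNNNGAA, which reads the same on both strands and is bound by STAT dimers, was in 6 of the 29 members (20.7%) and in 9.55% of genes. The core TGACGTCA of cyclic AMP response elements, a part of MHC class I promoters in looser form, was in 0 of the 29 and in 2.03% of genes. These matches are letters in a window and are not evidence of binding. The ratios between libraries given below parted along the GAAANNGAAA core in no common direction. In all named neurons the summed level was 1.13 times as high in AAV-TAU for the 15 members with the core and 1.11 times for the 14 without, and in endothelial-like nuclei 1.95 and 1.82 times. In microglia-like nuclei the members with the core were level at 0.993 and those without were at 1.40, while border macrophage-like nuclei had 1.21 and 1.06 and fibroblast-like nuclei 0.825 and 0.924.

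The AAV-STOP library held 130252240 unique molecules (UMIs, the unit counted) over 20265 barcodes and the AAV-TAU library 109428807 over 19596, with 116 barcode sequences in both. After marking doublets, 18085 and 17591 nuclei were kept. They formed 61 clusters, of which 36 took a name from marker genes and gave 18 classes. Since only markers name them, classes carry the ending -like. RNA that marks other cells was counted in many nuclei. Neuronal markers summed to between 2611 and 6422 CPM (counts per 1000000 UMIs of the class) in the fibroblast-like, microglia-like, border macrophage-like and endothelial-like nuclei. They summed to 6985 and 7069 CPM in AAV-STOP and AAV-TAU granule neuron-like nuclei and to 12959 and 13678 in all named neurons. Whether the neuronal RNA in non-neuronal classes was free RNA or came from remaining doublets was not tested. Microglial markers summed to 6156 CPM in AAV-STOP and 6189 in AAV-TAU microglia-like nuclei, against 73.9 and 72.6 in named neurons. The median share of mitochondrial UMIs per nucleus was 0.175% in the control library and 0.282% in the other, and in all 18 named classes the median log2 ratio of genes under 5 kb was above that of all genes, as given beside the results it touches. Of the 33 members, 22 were among the variable genes that built the clusters. Levels are CPM summed over the nuclei of a class, and all intervals are exact 95% intervals (Poisson for levels, conditional for ratios, Clopper-Pearson for shares) that cover counting error only.

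Summed over all 33 members, the module stood far higher in immune and vascular nuclei than in neurons, in both libraries. Border macrophage-like nuclei (38 in AAV-STOP, 65 in AAV-TAU), the phagocytes of meninges and perivascular spaces, had the highest sum, 1848 CPM (1615 to 2106) in AAV-STOP and 2156 (1938 to 2391) in AAV-TAU. Endothelial-like nuclei (62 and 91) followed in AAV-TAU with 1329 CPM (1222 to 1443), against 707 (627 to 795) in AAV-STOP. Fibroblast or leptomeningeal-like nuclei (272 and 263) had 736 CPM (678 to 798) and 666 (607 to 729), and microglia-like nuclei (175 and 518) 575 (506 to 651) and 668 (619 to 719). In AAV-STOP the intervals of endothelial-like and fibroblast-like nuclei overlapped, and in AAV-TAU those of fibroblast-like and microglia-like nuclei did, so these neighbours in the order are not parted by counting error. Choroid plexus or ependyma-like nuclei (30 and 44) had 276 and 456 CPM on 35 and 82 UMIs. Astrocyte-like nuclei (107 and 160) had 249.8 and 310.3 CPM, oligodendrocyte precursor-like nuclei (589 and 569) 163 and 191, and oligodendrocyte-like nuclei (1698 and 2075) 123 and 131. Named neurons (11397 and 10213) had the lowest sums, with 69.8 CPM (67.9 to 71.8) and 78.4 (76.2 to 80.6), although Cajal-Retzius neuron-like nuclei among them had 123 and 132. The astrocyte-like class left out a larger cluster (465 and 706 nuclei) in which the astrocyte marker set was highest but none of its markers was among the 10 leading genes. Its 22 interferon members summed to 134 and 144 CPM.

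**Figure D1:**
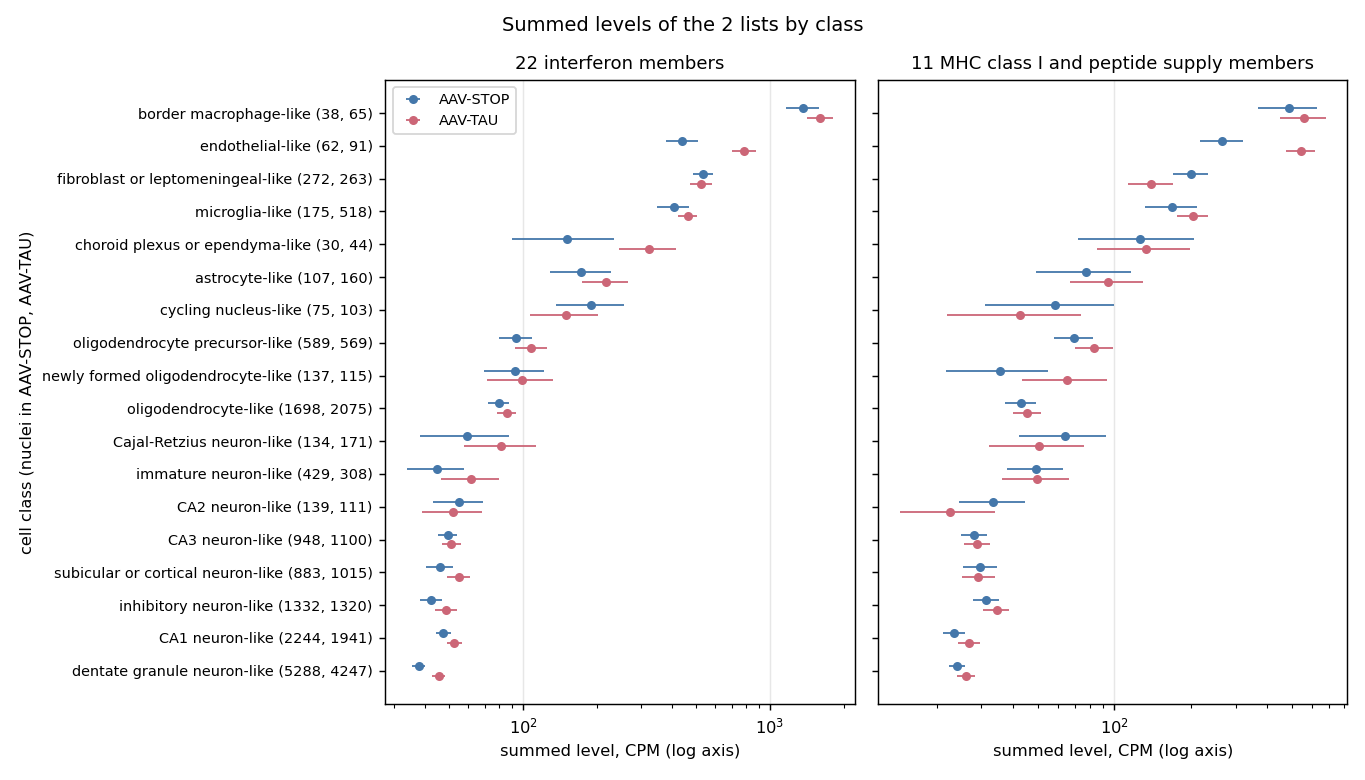
Summed level of the 22 interferon members (left) and the 11 MHC class I and peptide supply members (right) in each of the 18 named classes, in CPM on a log axis, for AAV-STOP (blue) and AAV-TAU (red). Horizontal lines are exact 95% Poisson intervals. Border macrophage-like nuclei stand highest in both lists (1364 and 1600 CPM for the interferon members). For the MHC class I list in AAV-TAU they are at 556 CPM on 92 UMIs, close to 542 CPM on 231 UMIs in endothelial-like nuclei. Endothelial-like nuclei are higher in AAV-TAU in both lists without overlap of the intervals. All named neurons sum to 43.2 and 49.9 CPM for the interferon members.

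Member by member, 32 of 33 had their highest class among immune, vascular, leptomeningeal or choroid nuclei in both libraries, and 21 had the same highest class in both. How many of all genes are highest in these classes was not counted. Border macrophage-like nuclei were highest for 22 members in AAV-STOP and 19 in AAV-TAU. In AAV-STOP they held 121742 UMIs, and some of these ranks rest on few of them, such as Psmb8 at 8.21 CPM and Tap1 at 16.4. Trim30a, a regulator of innate signalling, had 222 and 296 CPM in border macrophage-like nuclei (27 and 49 UMIs), against 106 and 90.2 in microglia-like nuclei, the next class. Rnf213, a giant ubiquitin ligase with antimicrobial activity, had 205 and 254 CPM (25 and 42 UMIs). Parp14, an ADP-ribosyltransferase, had 115 and 163 CPM (14 and 27 UMIs), and the nuclear body protein Sp100 had 148 and 139 (18 and 23 UMIs). Nlrc5, the transactivator of MHC class I genes, was at 90.4 and 96.6 CPM (11 and 16 UMIs) and at most 12.6 CPM in any other class of AAV-STOP. Of 2 measured members, Trim30a and Rnf213, 0 passed a 1.5-fold difference between the libraries, beside 14.6% of measured genes upward and 16.9% downward. Of the 22 members that allowed a ratio in border macrophage-like nuclei, 0 had an interval that left out 1. Beside this, the interval lay above 1 for 3.98% of genes and below 1 for 4.51%, so with 22 members the count says little about them. These nuclei gave 0.111% and 0.179% of all UMIs in AAV-STOP and AAV-TAU but held 2.61% and 3.99% of the UMIs of the interferon members.

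Other classes led for a few members. Endothelial-like nuclei were highest for Ifitm3, a membrane protein that blocks virus entry, with 88.4 and 113 CPM (35 and 48 UMIs), and for Gbp3 in both libraries. They were highest for 3 members in AAV-STOP and for 11 in AAV-TAU, among the latter B2m, H2-D1, H2-T22, H2-T23, Tap1 and Psmb8. Some of these leads in AAV-TAU were narrow: border macrophage-like nuclei were next for B2m (122 against 121 CPM) and H2-D1 (108 against 103 CPM). Fibroblast or leptomeningeal-like nuclei were highest for Ifih1, the sensor of long double-stranded RNA also called MDA5, with 34.4 and 54.9 CPM (28 and 39 UMIs), and for Ifit1 with 15.98 and 9.86 (13 and 7 UMIs). The exception was Psmb10, an immunoproteasome subunit, which was highest in Cajal-Retzius neuron-like nuclei of AAV-STOP on 6 UMIs. Stat2, the STAT of the type I interferon receptor, was at similar levels in neurons (29.2 and 33.5 CPM) and oligodendrocyte-like nuclei (31.9 and 31.9). Its highest class was border macrophage-like nuclei in AAV-STOP (98.6 CPM) and endothelial-like nuclei in AAV-TAU (65.7 CPM). Xaf1, a pro-apoptotic interferon target, was at 21.95 and 25.3 CPM in oligodendrocyte-like nuclei but 1.48 and 1.95 in neurons.

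**Figure D2:**
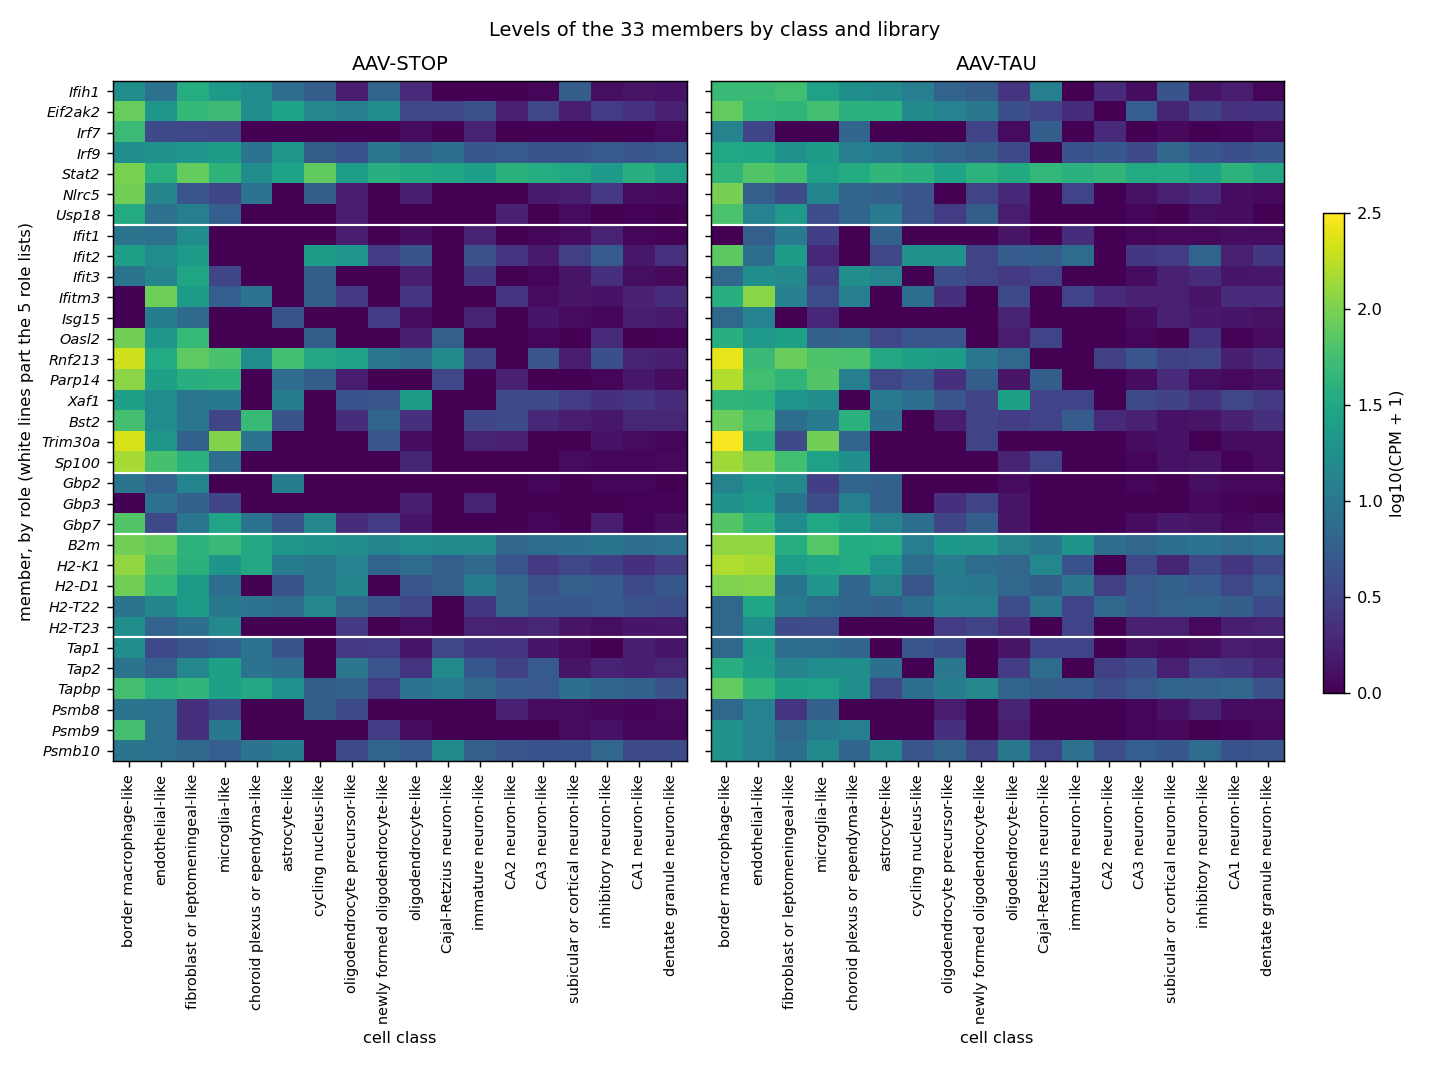
Level of each of the 33 members (rows, ordered by role, with white lines between the 5 roles) in the 18 named classes (columns), as log10(CPM + 1), in AAV-STOP (left) and AAV-TAU (right). The left columns, immune and vascular classes, are brightest; Stat2 and B2m are the members visible across all neuronal classes, and the endothelial-like column is brighter in AAV-TAU.

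Neurons had the lowest levels but, by their number, held 5179 of the 10033 UMIs of the module in the control library and 4984 of 10351 in the other, and their levels differed little between the libraries. A member was called past the fold at 1.5-fold or more on a log2 scale with 1 CPM added to both levels, among members with 50 or more UMIs in the class, here named measured. The added 1 CPM shrinks the ratio of a member near or under 1 CPM, so such a member passes only at a larger ratio. In all named neurons 0 of 21 measured members passed in either direction, where 0.256% of all measured genes passed upward and 0.0233% downward. Many members were at such low levels in neurons, so this count says little about them. Eif2ak2, given below, did not pass although its plain ratio was above 1.5. Of these 21, 15 were higher in AAV-TAU, beside 71.3% of all measured genes, and their median log2 ratio was 0.10 beside 0.07 over all genes. The 22 interferon members summed to 43.2 and 49.9 CPM, a ratio of 1.15 (1.10 to 1.21), and the 11 MHC class I and peptide supply members to 26.6 and 28.5, a ratio of 1.07 (1.01 to 1.14). Scaling by the median of ratios over genes gave 1.09 for the interferon sum.

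Stat2 alone supplied 67.4% of the interferon UMIs of neurons. It had 2167 and 2130 UMIs in AAV-STOP and AAV-TAU, or 29.2 and 33.5 CPM, a ratio of 1.15 (1.08 to 1.22). Eif2ak2, the double-stranded RNA kinase PKR that halts translation, had 90 and 117 UMIs (1.21 and 1.84 CPM), a ratio of 1.52 (1.14 to 2.02). Ifit2, an RNA-binding antiviral protein, had 104 and 123 UMIs (1.40 and 1.93 CPM), and Xaf1 had 110 and 124. Of the 33 members, 24 (72.7%) had a ratio above 1 in neurons, beside 67.9% of all 22099 genes with a ratio. The interval lay above 1 for 5 of them (15.2%), Eif2ak2, Stat2, Ifit2, Xaf1 and Psmb10, beside 26.6% of genes. The antiviral genes most used as marks of an interferon response were sparse. Isg15 had 33 and 23 UMIs in all named neurons (0.445 and 0.362 CPM), Ifit1 had 14 and 11, and Ifit3 had 25 and 32. Irf7, the factor that amplifies interferon production, had 5 and 9 UMIs, and Usp18, a feedback inhibitor of the receptor, had 4 and 6. B2m had 548 and 456 UMIs (7.39 and 7.17 CPM), a ratio of 0.971 (0.855 to 1.10), and H2-D1 280 and 245 (3.78 and 3.85 CPM).

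Among the 5 largest neuronal classes the ratio of the interferon sum ran from 1.04 in CA3 neuron-like to 1.2 in dentate granule neuron-like and in subicular or cortical neuron-like nuclei. Granule neuron-like nuclei (5288 and 4247), the input neurons of the hippocampus, had 37.8 and 45.4 CPM (ratio 1.2, 1.10 to 1.31), with 0 of 13 measured members past the fold, beside 1.01% of genes upward and 0.0554% downward. Their Stat2 was at 25.9 and 31.3 CPM. CA1 neuron-like nuclei had a ratio of 1.11 for the interferon members and 1.14 for the MHC class I and peptide supply members, with 0 of 8 measured members past the fold beside 1.56% upward and 0.15% downward. In inhibitory neuron-like nuclei these ratios were 1.15 and 1.10, and 0 of 8 passed, beside 1.93% and 0.624%.
In CA3 neuron-like nuclei (948 and 1100) the ratios were 1.04 and 1.02, and 1 of 11 measured members passed upward, beside 2.4% of genes, and 0 downward, beside 0.355%. The member was Eif2ak2, with 23 and 45 UMIs (2.42 and 4.55 CPM), a ratio of 1.88 (1.11 to 3.25). The count was 0 at clustering resolution 1, with thinned nuclei, at 2-fold, with a pseudocount of 5 CPM and under the naming thresholds tried first. In subicular or cortical neuron-like nuclei Irf9, a DNA-binding partner of STAT proteins, was the 1 of 6 that passed upward (beside 2.42%), with 19 and 35 UMIs and a ratio of 1.68 (0.934 to 3.10), and it lost the call under 7 of the alternatives. Irf9 overlaps Rnf31 on the same strand, so that reads of these genes may not be told apart. Where each nucleus was thinned to 1500 UMIs, the interferon ratio was 1.53 in CA3 neuron-like and 1.28 in all named neurons. Stat2 was the 1 measured member in immature and in CA2 neuron-like nuclei, and Cajal-Retzius neuron-like nuclei had 0. It was past the fold upward in immature neuron-like nuclei, with 31 and 35 UMIs (24.2 and 38.5 CPM; ratio 1.59, 0.950 to 2.66), beside 5.52% of genes, with 0 downward beside 2.38%. In CA2 neuron-like nuclei it was not past the fold, beside 3.4% of genes upward and 2.44% downward.

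**Figure D3:**
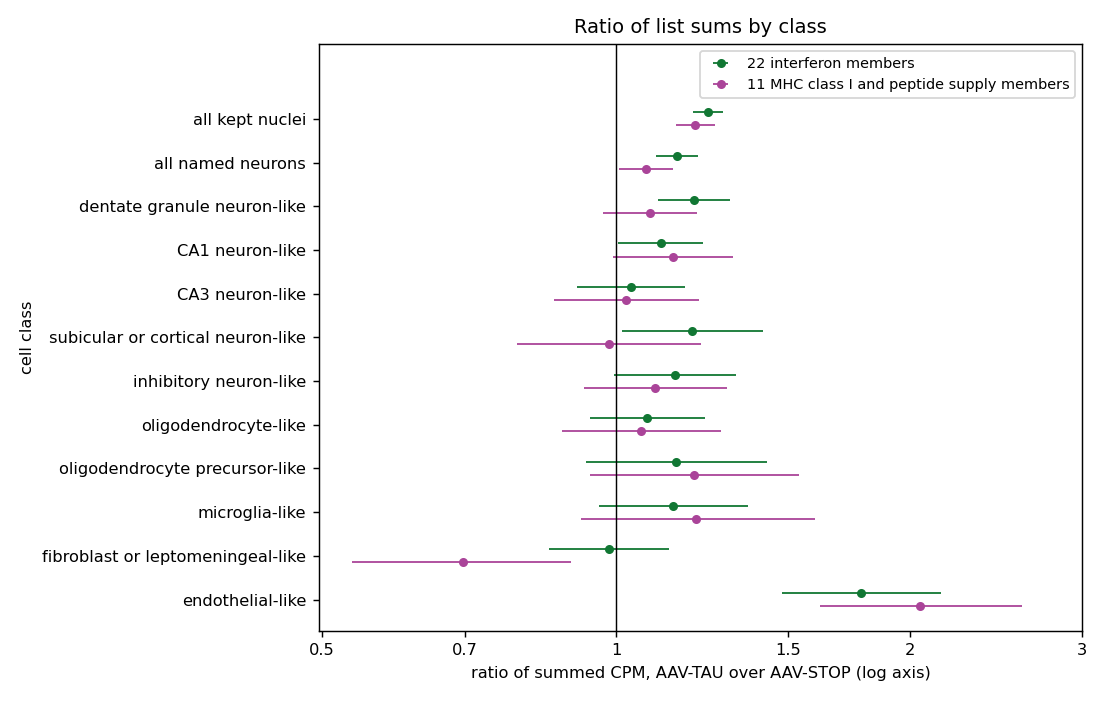
Ratio of AAV-TAU to AAV-STOP for the summed CPM of the 22 interferon members (green) and the 11 MHC class I and peptide supply members (purple) in 11 groups of named nuclei and in all kept nuclei, on a log axis with exact 95% intervals for counting error. The vertical line marks equal levels; the neuronal and glial ratios lie near it, the endothelial-like ratios are 1.78 and 2.05, and the fibroblast-like MHC class I ratio is 0.696.

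Oligodendrocyte-like nuclei, the myelin-forming glia, differed in 1 member. Their interferon members summed to 79.7 and 85.7 CPM, a ratio of 1.08 (0.939 to 1.23), and their MHC class I and peptide supply members to 42.9 and 45.5, a ratio of 1.06 (0.880 to 1.28). Psmb10 passed the fold upward, 1 of 8 measured members beside 5.84% of genes, and 0 passed downward beside 0.889%. It had 21 and 49 UMIs in AAV-STOP and AAV-TAU, 4.27 and 8.92 CPM, a ratio of 2.09 (1.23 to 3.67). Psmb10 is a gene of 2710 bp, and 21.9% of all genes under 5 kb in this class were past the fold upward, with a log2 median of 0.32. Psmb6 and Psmb5, proteasome subunits that the immunoproteasome replaces, were at 24.8 and 44.2 and at 33.5 and 52.6 CPM, and Psme1, a subunit of the proteasome activator, at 7.32 and 13.3. The part of gene length in the Psmb10 difference was not tested. B2m (15.4 and 12.01 CPM), H2-K1 (6.91 and 5.64) and Tapbp (7.93 and 5.46), the chaperone that loads peptides, were lower in AAV-TAU, each with an interval that held 1. In oligodendrocyte precursor-like nuclei the ratios of the sums were 1.15 (0.931 to 1.43) and 1.2 (0.940 to 1.54), and 0 of 4 measured members passed, beside 5.49% of genes upward and 1.75% downward.

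Microglia-like nuclei, the resident macrophages of brain tissue, numbered 175 and 518 in AAV-STOP and AAV-TAU, while the sums of both groups of members had ratios whose intervals held 1. Interferon members summed to 407 and 464 CPM, a ratio of 1.14 (0.959 to 1.36), and MHC class I and peptide supply members to 169 and 203, a ratio of 1.21 (0.920 to 1.6). All members together summed to 575 and 668 CPM, a ratio of 1.16 (1.003 to 1.35), and this interval lay just above 1. Of 23 members with a ratio, 17 (73.9%) were above 1, beside 53.0% of all genes with a ratio in this class. Among these 23, the interval lay above 1 for 1 member and below 1 for 1. Of 5 measured members, 1 passed upward, beside 9.07% of genes, and 0 downward, beside 5.86%. The median log2 ratio of the 5 was 0.13, beside 0.02 over all genes. Parp14 was the member that passed, with 17 and 69 UMIs (39.3 and 66.2 CPM) and a ratio of 1.69 (0.981 to 3.06). Trim30a was at 106 and 90.2 CPM, Rnf213 at 60.1 and 62.4, Eif2ak2 at 50.8 and 55.7, and B2m at 48.5 and 69.1 (ratio 1.42, 0.866 to 2.44). Sp100 had 3 and 27 UMIs (ratio 3.74, 1.15 to 19.3) and H2-T23, a non-classical chain recognised by natural killer cells, had 6 and 3 (ratio 0.208, 0.0336 to 0.972). Ifit1, Isg15, Irf7 and Oasl2 had too few UMIs there to compare. In this class 30.9% of genes under 5 kb were past the fold upward, and the median over these short genes was 0.37 on the log2 scale. Parp14, Trim30a, Rnf213, Eif2ak2 and B2m are between 5 and 100 kb long. Of measured genes of that length 9.58% were past the fold upward, with a log2 median of 0.06. A further 271 AAV-STOP and 89 AAV-TAU nuclei in clusters with microglial markers and strong neuronal RNA were left without a name. With these added to the named class, 446 and 607 nuclei, the interferon sum was at 170 and 366 CPM. The ratio was then 2.15 (1.87 to 2.47) in place of 1.14, so it depends on which clusters carry the name. No single cluster had such a ratio: the unnamed ones were at 114 and 122 and at 99.9 and 93.1 CPM in AAV-STOP and AAV-TAU. These lower-level nuclei were 271 of the 446 in AAV-STOP but 89 of the 607 in AAV-TAU.

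Endothelial-like nuclei, the lining of blood vessels, differed more than neurons or microglia-like nuclei, and both groups of members were higher in AAV-TAU. This class has fewer than 100 nuclei in either library (62 and 91) and took its name only after a limit on neuronal RNA was raised, so its values are levels of a small group. Its cluster was led by Flt1, Mecom, Slco1a4 and Adgrl4 of the endothelial set together with Acta2, Myh11 and Tagln of smooth muscle. MHC class I chains summed to 197 CPM (156 to 246) in AAV-STOP and 420.3 (361 to 487) in AAV-TAU, a ratio of 2.13 (1.63 to 2.82). H2-K1 (chr17:33996017-34000347, GRCm38), a classical heavy chain, had 23 and 62 UMIs (58.1 and 146 CPM), a ratio of 2.51 (1.53 to 4.24). H2-D1 (chr17:35262730-35267499), the other classical heavy chain of this strain, had 18 and 46 UMIs (45.4 and 108 CPM), a ratio of 2.38 (1.35 to 4.36). B2m had 30 and 52 UMIs (75.7 and 122 CPM), a ratio of 1.61 (1.01 to 2.62). The heavy chains are close relatives within a gene family, and reads shared between them could be split or lost in counting.

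Guanylate-binding proteins, GTPases that attack membranes of intracellular pathogens, summed to 6 and 34 UMIs in AAV-STOP and AAV-TAU endothelial-like nuclei, 15.1 and 79.8 CPM, a ratio of 5.27 (2.19 to 15.4). Gbp7 gave 1 and 17 of these UMIs, Gbp2 2 and 8, and Gbp3 3 and 9. Ifih1 had 3 and 20 UMIs (7.57 and 47.0 CPM), a ratio of 6.20 (1.84 to 32.6), and Bst2, the tetherin that holds budding virus at the membrane, 6 and 23 (15.1 and 54.0 CPM), a ratio of 3.57 (1.41 to 10.7). Tap1, a subunit of the peptide transporter, had 1 and 9. Other interferon targets differed by few UMIs: Isg15 had 4 and 5 UMIs, Oasl2 8 and 9, and Ifit3 5 and 7. Of 31 members with a ratio, 29 (93.5%) were above 1, beside 56.9% of all genes with a ratio in this class. Of measured genes under 5 kb, 85.6% were higher. Most members are between 5 and 100 kb long, and 60.2% of measured genes of that length were higher. An interval above 1 was found for 7 of the 31 (22.6%), beside 5.33% of genes. Of the 5 measured members, 4 passed upward (Sp100, B2m, H2-K1 and H2-D1), beside 10.7% of all genes measured in the class, and 0 downward, beside 8.22%. Ifitm3 did not pass (ratio 1.28, 0.808 to 2.03).

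Other values moved in the same nuclei. Endothelial markers summed to 2653 and 3625 CPM (1.37 times) and mural markers to 1330 and 1984 (1.49 times). Choroid plexus or ependyma markers were at 249.9 and 486 CPM (1.94 times), with 1 and 2 of 6 at 0, and leukocyte markers at 25.2 and 32.9 (1.30 times), with 3 of 6 at 0 in both, while neuronal markers were lower, at 6422 and 5142. None of the 6 endothelial markers was at 0 in either library. The median depth was 5262 and 3267 UMIs per nucleus and the median mitochondrial share 0.391% and 0.605%. Among genes under 5 kb, such as H2-K1 and H2-D1, 28.3% passed the fold upward, and the log2 median was 0.39. Among genes of 5 to 100 kb, such as B2m and Sp100, 11.2% passed, and the median was 0.09. Counted per UMI of the endothelial markers in place of all UMIs, the ratio of the interferon sum was 1.30 against 1.78, and that of the MHC class I and peptide supply sum 1.50 against 2.05. With nuclei thinned to 1500 UMIs the interferon ratio was 1.2, and as a mean over nuclei 1.28, while the MHC class I and peptide supply ratio was 1.93 and 1.92. The parts of depth, gene length, vessel cell make-up and choroid RNA in these differences were not tested beyond these values. Ratios as high were also found in classes with fewer UMIs of the module: the interferon sum of choroid plexus or ependyma-like nuclei had a ratio of 2.15 (1.26 to 3.82) on 19 and 58 UMIs, and the MHC class I chains of newly formed oligodendrocyte-like nuclei one of 2.31 (1.09 to 5.11) on 12 and 22.

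**Figure D4:**
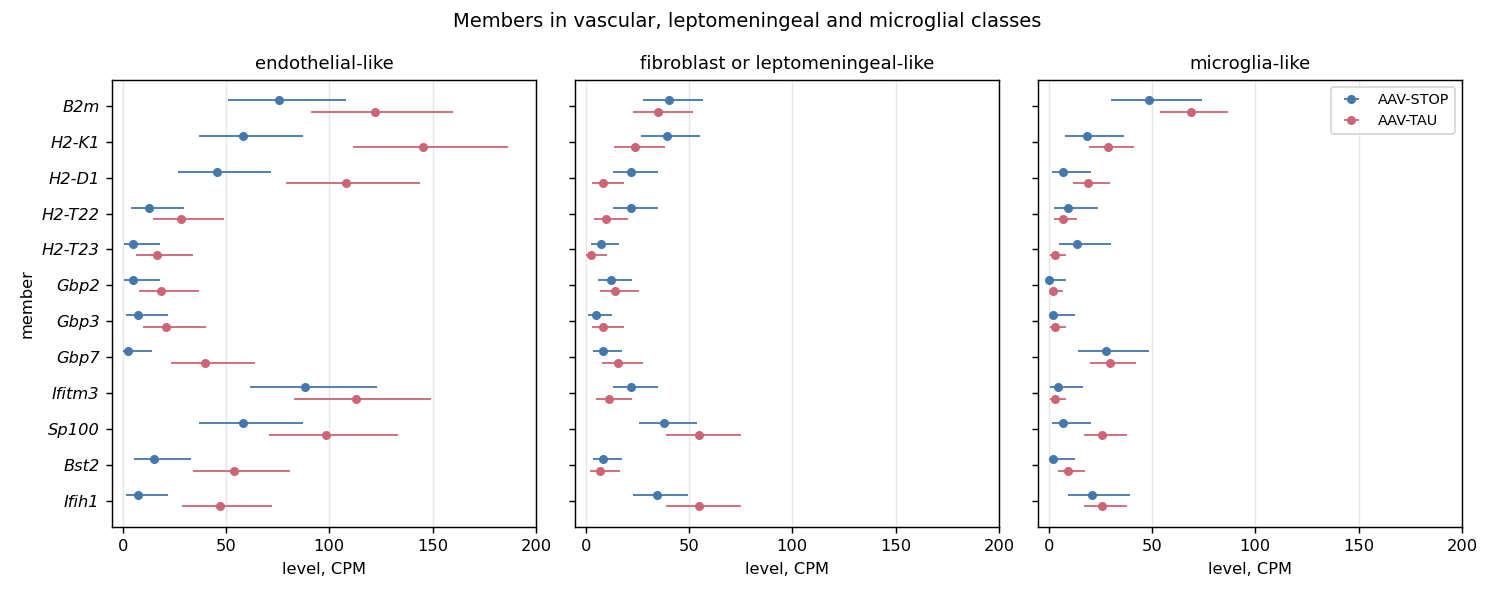
Levels of 12 members (MHC class I chains, guanylate-binding proteins, Ifitm3, Sp100, Bst2 and Ifih1) in endothelial-like (left), fibroblast or leptomeningeal-like (middle) and microglia-like nuclei (right), in CPM with exact 95% Poisson intervals, for AAV-STOP (blue) and AAV-TAU (red). In endothelial-like nuclei H2-K1 is at 58.1 and 146 CPM and its intervals do not overlap; in fibroblast-like nuclei the heavy chains are lower in AAV-TAU.

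Fibroblast or leptomeningeal-like nuclei, the connective tissue cells of meninges and vessel walls, went the other way for MHC class I. The chains summed to 131 CPM in AAV-STOP (107 UMIs) and 80.3 in AAV-TAU (57 UMIs), a ratio of 0.610 (0.435 to 0.849). The class joins clusters whose shares differed between the libraries, one of 151 and 193 nuclei and one of 121 and 70. In the former the chains had 40 and 38 UMIs, a ratio of 0.838 (0.523 to 1.34), and in the latter 67 and 19, a ratio of 0.490 (0.278 to 0.825). The lower level thus lay mostly in the smaller cluster, which in AAV-STOP also had the higher level (175 against 92.8 CPM). H2-D1 had 18 and 6 UMIs, H2-K1 32 and 17, and H2-T22, a non-classical chain, 18 and 7. Tapbp had 35 and 18 UMIs (43.0 and 25.3 CPM) and Oasl2, an OAS-like ubiquitin-domain protein, 38 and 18 (46.7 and 25.3 CPM, ratio 0.543, 0.292 to 0.975). These last were the 2 of 9 measured members past the fold downward, beside 6.18% of genes. Ifih1 was the 1 past the fold upward, beside 8.59%, with a ratio of 1.6 (0.957 to 2.69). The interferon sum was level, at 536 and 527 CPM. Border macrophage markers summed to 8.60 and 81.7 CPM in these nuclei and choroid plexus or ependyma markers to 152 and 446, and the part of either in the result was not tested. Fibroblast markers were at 4133 and 3848 CPM, astrocyte markers at 1224 and 1678 and oligodendrocyte markers at 1330 and 956. The median depth was 2717 and 2553 UMIs per nucleus and the median mitochondrial share 0.395% and 0.360%. Among genes under 5 kb, such as H2-K1 and H2-D1, 34.1% passed the fold upward, with a log2 median of 0.40. Among genes of 5 to 100 kb 8.47% passed, with a median of 0.04. The part of these values in the result was not tested. With doublets kept, neither Tapbp nor Oasl2 was past the fold and the interferon ratio was 1.15.

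Nuclei with UMIs of 3 or more different interferon-induced effectors were counted. Such a count rises with the level of the effectors and with depth, and the count for independent effectors was not computed. It therefore does not show whether effectors came together in the same nucleus. Border macrophage-like nuclei had 11 of 38 (28.9%, 15.4 to 45.9) in AAV-STOP and 18 of 65 (27.7%, 17.3 to 40.2) in AAV-TAU. Endothelial-like nuclei, with a median depth of 5262 and 3267 UMIs, had 13 of 62 and 24 of 91. Microglia-like nuclei had 1 of 175 (0.571%, 0.0145 to 3.14) and 12 of 518 (2.32%, 1.2 to 4.01), and after thinning to 1500 UMIs 1 and 7, with intervals that overlapped in both settings. Neurons, which are deeper (median 6052 and 5792 UMIs against 2242 and 1929 in microglia-like nuclei), had 0 of 11397 and 1 of 10213. Nuclei with any UMI of the interferon members were 45.1% and 45.9% of microglia-like nuclei after thinning and 5.84% and 7.44% of neurons. Without thinning these shares were 64.0% and 53.5% in microglia-like nuclei and 23.4% and 25.0% in neurons.

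Over all kept nuclei the module was at 91.2 CPM in AAV-STOP and 112 in AAV-TAU, a ratio of 1.23 (1.19 to 1.26), which is above that of most single classes. The median log2 ratio of 32 measured members was 0.23 beside 0.08 over all genes. Of these, 29 were higher in AAV-TAU, beside 72.2% of all measured genes. The fold was passed upward by 1 (Parp14, 1.12 and 2.19 CPM), beside 0.772% of genes, and downward by 0, beside 0.0213%. The make-up of the libraries differed among the classes with high levels. Microglia-like nuclei gave 0.394% and 1.13% of all UMIs in AAV-STOP and AAV-TAU, and 2.77% and 7.29% of the UMIs of the interferon members. The unnamed clusters with microglial markers went the other way, with 1.45% and 0.439% of all UMIs and 2.67% and 0.693% of those of the interferon members, and named and unnamed together gave 1.85% and 1.57% of all UMIs and 5.44% and 7.99% of the interferon UMIs. Fibroblast-like nuclei held 6.85% and 5.64% of the interferon UMIs. Endothelial-like nuclei gave 0.360% and 0.461% of all UMIs but 2.86% and 6.22% of those of the MHC class I and peptide supply members, beside a ratio of 2.05 in level. With the AAV-TAU levels of each cluster weighted by the AAV-STOP make-up, the ratio of the interferon sum was 1.12 in place of 1.24, and that of the MHC class I and peptide supply sum 1.14 in place of 1.21.

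The rest of the pathway was read from gene lists. Of 11 interferon genes, the ligands, 4 UMIs were found in all kept nuclei of AAV-STOP and 2 in those of AAV-TAU. Among 12 receptors and kinases 11 were measured in neurons and 0 passed the fold, and of 17 nucleic acid sensing genes 13 were measured and 0 passed, all beside the 0.256% of genes above. Irf3, the factor that starts interferon transcription, was at 17.5 and 21.0 CPM in neurons. Of 37 other interferon-induced genes 21 were measured in neurons, 17 were higher in AAV-TAU, where 71.3% of all measured genes were, and 0 passed. In endothelial-like nuclei 2 of these 37 were measured and both passed upward, beside 10.7% of genes: Ly6e, a surface protein that limits virus fusion, with 141 and 239.5 CPM, and Slfn5, a Schlafen protein, with 53.0 and 113. In microglia-like nuclei 7 of the 37 were measured and 1, Parp9, passed upward, beside 9.07% of genes, with 25.4 and 39.3 CPM, while Stat3 was at 80.9 and 129 CPM and Adar, the editor of double-stranded RNA, at 83.2 and 51.8.

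Counting limits some members. Tap1 and Psmb9 are transcribed from opposite strands with starts 211 bp apart and overlap, Tapbp overlaps Zbtb22 on its own strand, and 14 members in all overlap a gene of the other strand, among them B2m with Patl2 and Irf7 with Phrf1. Ifit3, Trim30a and the H2 genes have near-identical relatives, and their counts are uncertain to that extent.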

How the data were processed

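Single-nucleus 3' libraries of pooled hippocampi, 1 per group, were analysed from the deposited UMI counts for each gene in each filtered barcode. The authors made these counts with Cell Ranger, version 8.0.1 per the file headers, while the submitters' processing notes name Cell Ranger 4.0, Seurat 4.4.0 and mm10. Barcodes with over 5% mitochondrial UMIs (4 and 2) and doublets marked by a scrublet-type simulation (10.7% and 10.2%) were left out. Nuclei were clustered jointly on 3000 variable genes, 30 components and 15 neighbours with leidenalg 0.10.2 at resolution 2 (Python 3.11.15, numpy 2.4.6, scipy 1.17.1). A cluster was named from 6 markers per type.

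The naming thresholds were changed after the clusters had been seen: the lead over the next type from 0.3 to 0.5, the Rbfox3 limit for non-neuronal clusters from 50% to 75% of the neuronal median, and leading genes by fold against all other nuclei in place of the median cluster. Under the first thresholds the main CA1 clusters and the endothelial-like cluster had no name.

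Members and gene lists were chosen with earlier results of these data known, and every member may be named, those measured with the largest ratios in full. Ratios and counts are given for classes chosen after their values were seen. Levels are the deposited counts summed over a class, as CPM. No test was made, with 1 library per group. Measured means 50 or more UMIs over both libraries, and called means 1.5-fold with a pseudocount of 1 CPM. The ratio intervals were tried only on simulated Poisson counts, the error they are built for, so spread between nuclei or mice was not covered. Gene positions are from GENCODE (GRCm38), promoters from RefSeq.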

Additional observations from a re-analysis of the deposited data

Results flagged for a closer look

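The summed level of the 11 MHC class I and peptide supply members was 2.05 times as high in AAV-TAU as in AAV-STOP in endothelial-like nuclei and 0.696 times as high in fibroblast-like nuclei, so that the single AAV-TAU library lay above the AAV-STOP library in the former and below it in the latter. The fibroblast-like ratio joins clusters of which one (151 and 193 nuclei) had 0.857 (0.601 to 1.22) and the other (121 and 70) 0.600 (0.391 to 0.900). The difference between these ratios was not tested, since each group has 1 library. The values of cell type markers, depth and gene length that moved with each are given beside the results.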

How the results depend on the processing

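No paired analysis was possible because there is 1 library per group. Of 456 recomputed values over 50 results in the classes compared, 386 kept their direction and size. In the other classes, 342 of 404 did. Thinning every nucleus to 1500 UMIs gave interferon ratios of 1.28 in all named neurons, 1.29 in CA1 neuron-like, 1.53 in CA3 neuron-like and 1.2 in endothelial-like nuclei, and MHC class I and peptide supply ratios of 0.968 in granule neuron-like and 1.38 in CA1 neuron-like nuclei. Other moved interferon ratios were 1.09 in neurons (median of ratios), 1.15 in fibroblast-like nuclei (doublets kept), 1.28 (mean over nuclei) and 1.30 (per endothelial marker UMI) in endothelial-like nuclei, 1.2 in CA3 neuron-like nuclei (without Stat2) and 1.12 in all kept nuclei (AAV-STOP make-up). Moved MHC class I and peptide supply ratios were 1.29 in oligodendrocyte-like nuclei (resolution 1), 1.50 in endothelial-like nuclei (per marker UMI) and 1.14 in all kept nuclei (AAV-STOP make-up).

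Counts of members past the fold were small and moved easily. The shares of all genes past the fold under the same settings are not given here. The counts below thus show only how the calls moved and are no result about the members, above all at 20 UMIs and with no filter, where members with few UMIs enter. Counts upward of 1 became 0 at 2-fold in CA3, subicular, oligodendrocyte, microglia and fibroblast-like nuclei, and the fibroblast-like count downward became 0. With a pseudocount of 5 CPM the CA3 and subicular counts became 0, and with 0.5 CPM the granule neuron count became 1 and the oligodendrocyte count 2. At 20 UMIs the counts upward were 1 in CA1 and inhibitory, 2 in CA3, 5 in microglia and 3 in fibroblast-like nuclei, and downward 1 in oligodendrocyte, 2 in microglia and 8 in fibroblast-like nuclei. With no filter they were, upward, 1 in CA1, 2 in CA3, 3 in subicular, 2 in inhibitory, 5 in oligodendrocyte, 14 in microglia and 7 in fibroblast-like nuclei, and downward 1 in subicular, inhibitory and oligodendrocyte, 4 in microglia and 12 in fibroblast-like nuclei. Thinning gave 1 upward in all named neurons, 0 in CA3, subicular, oligodendrocyte and fibroblast-like nuclei, and 0 downward in fibroblast-like nuclei. A floor of 2000 UMIs gave 1 downward in microglia and, in fibroblast-like nuclei, 0 upward and 1 downward. Resolution 1 gave 0 in CA3 and subicular, the first naming thresholds 0 in CA3, median-of-ratios scaling 0 in subicular, the mean over nuclei 0 in subicular and 2 in fibroblast-like nuclei, and doublets kept 0 in subicular, 2 upward and 0 downward in fibroblast-like nuclei.

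The share of nuclei with a UMI of a list differed by -10.5 (interferon) and -3.39 (MHC class I and peptide supply) percentage points in microglia-like nuclei, which became 0.803 and 0.533 after thinning, and the latter 3.11 at the floor of 2000 UMIs. In oligodendrocyte-like nuclei -0.393 and -0.400 became 0.901 and 0.424 after thinning and 0.708 and 0.273 at the floor. The causes were not tested. Few UMIs limit the vascular and immune classes, and the smallest of them depend on how clusters form and are named.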

Other observations

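Unnamed clusters held some of the module. A cluster of 29 AAV-STOP and 457 AAV-TAU nuclei, led by Cmss1, Lars2 and Camk1d, had 130 and 130 CPM of the 11 MHC class I and peptide supply members (9 and 108 UMIs) and 57.8 and 56.6 CPM of the 22 interferon members (4 and 47 UMIs). A cluster of 45 and 6 nuclei had 283 and 102 CPM of the interferon members, on 39 and 4 UMIs. The pair of clusters with microglial markers and strong neuronal RNA had between 93.1 and 122 CPM of the interferon members, against 407 and 464 in microglia-like nuclei. A cluster of 98 nuclei was found in AAV-TAU alone, with 77.3 CPM of the interferon members, and another of 72 in AAV-STOP alone, with 55.1.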
